A study of Sus scrofa with 25 samples.

Results

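The creatine kinase and creatine supply genes of pig muscle are described here across 25 muscle libraries, 1 library per pig. They are the 7 genes CKM, CKMT2, CKB, SLC6A8, GAMT, GATM and AMPD1, picked by symbol in an Ensembl pig gene name table, and they are 7 of 25879 genes with counts. The study asked how muscle transcripts differ with vitamin D3 in the feed. The feed of the control group (8 pigs) was given with 0 IU/kg, that of the D5000 group (8 pigs) with 5000 IU/kg and that of the D10000 group (9 pigs) with 10000 IU/kg, over 90 days that began on day 85 of life. All pigs came from crosses of Polish Large White sows with Landrace boars. Replicate numbers are the animal numbers in the labels. The labels do not name the muscle, the sex or the litter.

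Muscle holds phosphocreatine as a fast reserve of phosphate for ATP, and creatine kinases move the phosphate between ATP and creatine. Muscle itself makes little creatine: GATM carries out the first step of creatine synthesis, chiefly in kidney and pancreas, GAMT adds the methyl group in the second step, chiefly in liver, and the transporter SLC6A8 takes creatine up from blood. When ATP is used faster than it is restored, AMPD1 deaminates AMP in skeletal muscle as the entry step of the purine nucleotide cycle.

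Reads came from the 3' ends of mRNAs, so a gene's counts do not grow with transcript length. Levels are given as CPM, counts per 1000000 gene counts of a library. Gene counts ran from 3310507 to 15177976 per library, and reads assigned to genes were 58.4% ± 8.76 of the reads in control files, 51.8% ± 12.6 in D5000 files and 53.5% ± 13.1 in D10000 files (SD, n = 8, 8 and 9). The muscle label was checked on 15 skeletal muscle markers: ACTA1, the skeletal actin, had 27735 to 213895 CPM in 24 libraries and 10029 CPM in D10000 replicate 27.

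D10000 replicate 27 stood apart in the creatine kinase genes as well as in the markers. CKM had 1176 CPM there, 10.4-fold below the median of 12253 CPM in the other 24 libraries. CKMT2 had 10.2 CPM, against a median of 556 CPM in the others, and AMPD1 had 28.5 CPM, against 452 CPM. CKB went the other way, with 154 CPM against a median of 5.03 CPM, a 30.7-fold difference. GAMT (132 CPM against 131 CPM) and SLC6A8 (9.33 CPM against 13.5 CPM) lay inside the range of the other libraries, and so did GATM (19.6 CPM against 64.3 CPM). Over the 15 skeletal muscle markers the median difference was 10.5-fold lower, and 11 of them were at their lowest in this library. The adipocyte markers had a summed level of 17433 CPM, against 541 to 1489 CPM elsewhere, and the fat hormone ADIPOQ had 1234 CPM against a median of 10.1 CPM. Smooth muscle markers (634 CPM, with 344 CPM as the next highest sum) and endothelial markers (624 CPM, with 222 CPM as the next) were also at their highest there. The part of these transcripts in the values of the creatine genes was not tested. In bulk muscle, fewer cells of a type and less RNA per cell cannot be told apart. Results that rest on this library are given with and without it.

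**Figure D1:**
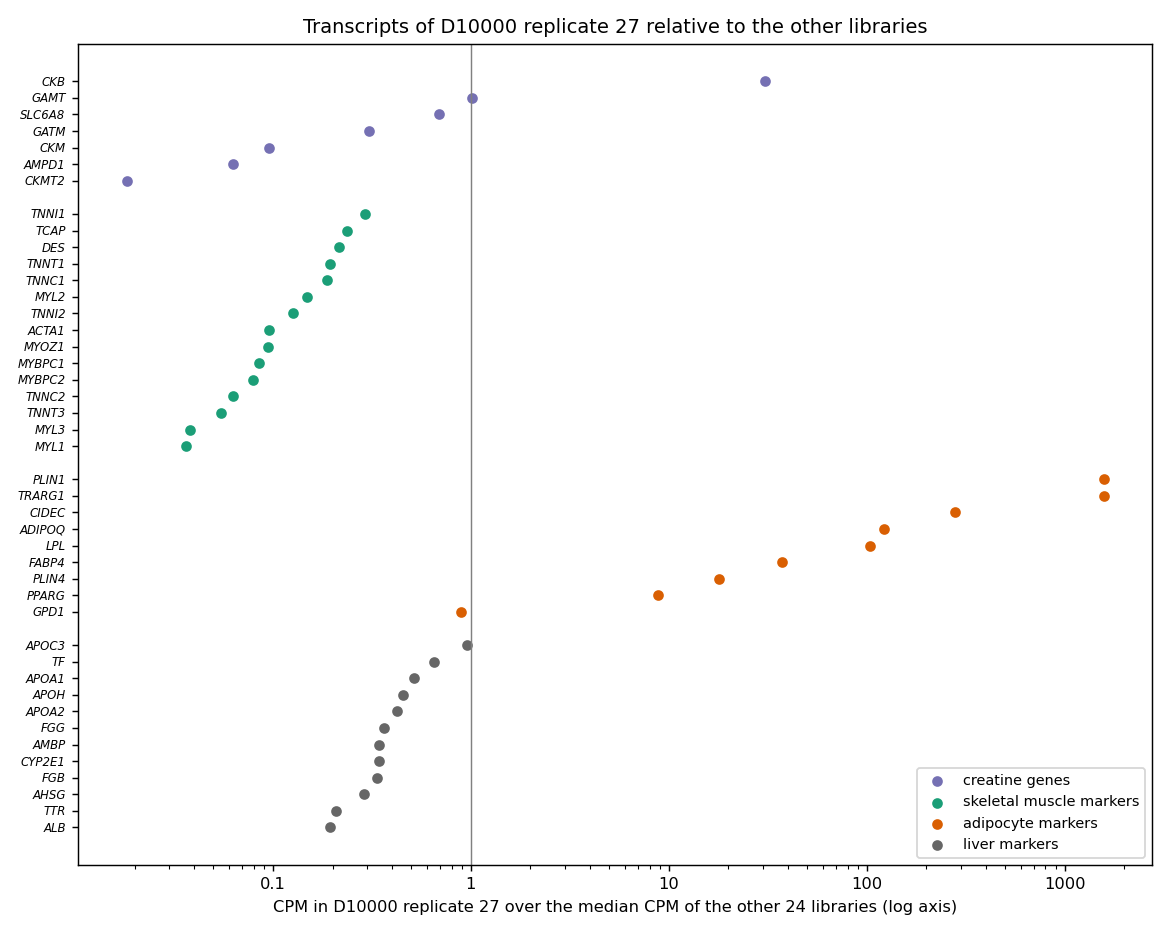
Level of each gene in D10000 replicate 27 divided by its median over the other 24 libraries (log axis, CPM), for the creatine genes and the skeletal muscle, adipocyte and liver markers whose median is above 0. CKM, CKMT2 and AMPD1 lie left of 1 with the skeletal muscle markers, CKB lies right of 1 at 30.7, and 8 of the 9 adipocyte markers drawn lie right of 1.

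The 3 diets were first compared for the creatine kinases, the enzymes that move the high-energy phosphate. CKM, the cytosolic muscle form, was among the most abundant transcripts, ranking between place 5 and place 130 in a library. It had 4671 CPM (replicate 28) to 20532 CPM (replicate 17) in the control with a median of 14384 CPM, 2731 CPM (replicate 18) to 17239 CPM (replicate 5) in D5000 with a median of 11691 CPM, and 1176 CPM (replicate 27) to 19409 CPM (replicate 20) in D10000 with a median of 11379 CPM. Each diet held high and low pigs, and the ranges overlapped almost wholly. The log2 fold change was -0.37 ± 0.49 (SE) in D5000 over control, with a 95% interval of -1.37 to 0.63, and -0.49 ± 0.48 in D10000 over control, with an interval of -1.46 to 0.48. D10000 over D5000 gave -0.12 ± 0.48, and 0.04 ± 0.43 without D10000 replicate 27.

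CKMT2, the sarcomeric mitochondrial creatine kinase, lay lower and had a coefficient of variation of 34.1% over the 24 libraries without D10000 replicate 27, beside 42.9% for CKM. The control had 371 to 1058 CPM (median 556 CPM), D5000 had 268 to 832 CPM (median 499 CPM) and D10000 had 10.2 to 969 CPM (median 561 CPM), with 310 CPM as the lowest D10000 value outside replicate 27. The medians of the diets lay closer together than the pigs within any diet. The log2 fold change was -0.22 ± 0.48 (interval -1.20 to 0.76) in D5000 over control and -0.34 ± 0.47 (interval -1.30 to 0.61) in D10000 over control. Without D10000 replicate 27 the second of these was -0.17 ± 0.35.

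CKB, the brain-type cytosolic form, was rare in muscle, with 2 to 263 counts per library outside D10000 replicate 27. The control had 2.79 to 10.5 CPM (median 5.26 CPM), D5000 had 1.16 to 43.8 CPM (median 4.82 CPM) and D10000 had 0.604 to 154 CPM (median 5.28 CPM). The lowest value rests on 2 counts and has an exact Poisson interval of 0.0732 to 2.18 CPM at 95%, which covers counting error only. The 3 medians were nearly equal, while single libraries lay far above the rest of their diet: replicate 6 in D5000 and replicate 27 in D10000. These libraries also had the highest sums of the Schwann cell and nerve markers (191 and 182 CPM), close above control replicate 3 (181 CPM), and the part of such transcripts in the CKB values was not tested. The log2 fold change was 0.92 ± 0.84 (interval -0.80 to 2.64) in D5000 over control, and 0.02 ± 0.78 without D5000 replicate 6. It was 1.60 ± 0.83 (interval -0.11 to 3.30) in D10000 over control, and -0.12 ± 0.61 without D10000 replicate 27. D10000 over D5000 gave 0.68 ± 0.81, and -1.05 ± 0.61 without D10000 replicate 27. Each CKB difference thus came close to 0 or changed sign when 1 library was left out.

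Together the counts of these 3 creatine kinase genes in a library were 94.4% ± 2.90 CKM, 5.04% ± 2.69 CKMT2 and 0.525% ± 2.29 CKB (SD, n = 25). The symbols of 2 other creatine kinase genes, CKMT1A and CKMT1B, were not matched, so these are not in the shares. CKB made up 11.5% in D10000 replicate 27 and at most 0.505% in the other 24 libraries. The share of CKMT2 was 0.760% in that library, against a median of 4.61% and a highest value of 13.0% over all libraries.

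**Figure D2:**
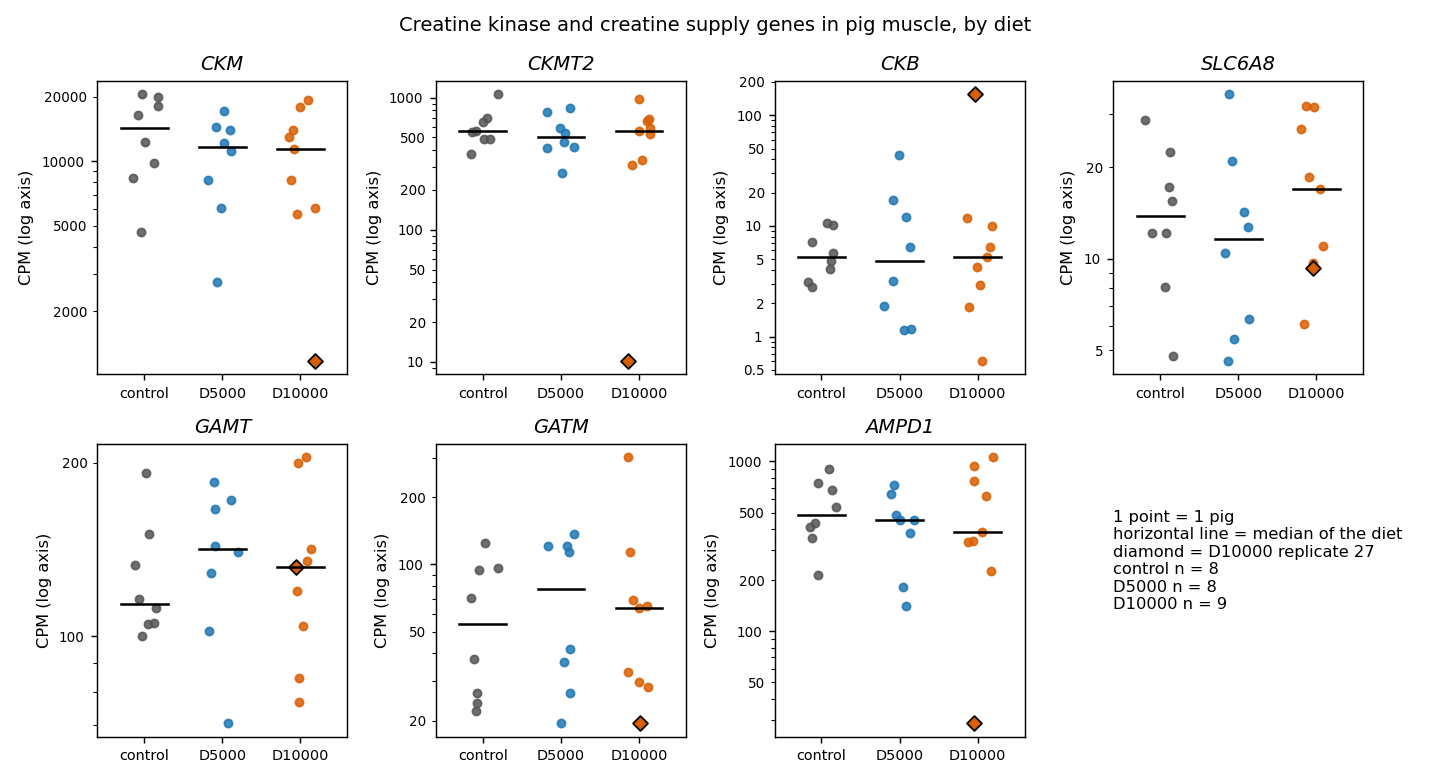
CPM of the 7 genes in each pig (log axes), with control, D5000 and D10000 from left to right, a line at the median of each diet and a diamond for D10000 replicate 27. The ranges of the diets overlap for each gene, and the diamond is the lowest point for CKM, CKMT2 and AMPD1 and the highest for CKB.

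SLC6A8, the creatine transporter of the plasma membrane, was a low-abundance transcript with 20 to 329 counts per library. It had 4.79 to 28.7 CPM (median 13.8 CPM) in the control, 4.62 to 34.7 CPM (median 11.6 CPM) in D5000 and 6.09 to 31.9 CPM (median 16.9 CPM) in D10000. High and low libraries were found in every diet. The log2 fold change was -0.08 ± 0.44 (interval -0.97 to 0.82) in D5000 over control, 0.14 ± 0.43 (interval -0.73 to 1.01) in D10000 over control and 0.22 ± 0.43 in D10000 over D5000.

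Transcripts of both enzymes of creatine synthesis were found in each library. GAMT, the methyltransferase of the second step, had 99.99 to 192 CPM (median 114 CPM) in the control, 70.6 to 185 CPM (median 142 CPM) in D5000 and 76.99 to 205 CPM (median 132 CPM) in D10000. It varied least of the 7 genes, with a coefficient of variation of 28.3% over 25 libraries. Its log2 fold change was 0.07 ± 0.23 (interval -0.39 to 0.53) in D5000 over control and -0.13 ± 0.22 (interval -0.57 to 0.32) in D10000 over control, the narrowest intervals of the 7. D10000 over D5000 gave -0.20 ± 0.22.

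GATM, the amidinotransferase of the first step, differed far more between pigs, with a coefficient of variation of 84.4%. It had 22.1 to 124 CPM (median 54.2 CPM) in the control, 19.4 to 136 CPM (median 77.5 CPM) in D5000 and 19.6 to 302 CPM (median 63.6 CPM) in D10000. The highest value came from D10000 replicate 7, and the next in that diet was 114 CPM. The log2 fold change was 0.23 ± 0.41 (interval -0.61 to 1.07) in D5000 over control and 0.18 ± 0.40 (interval -0.63 to 1.00) in D10000 over control, and the second was -0.25 without D10000 replicate 7.

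AMPD1, the muscle AMP deaminase, had 214 to 906 CPM (median 487 CPM) in the control, 141 to 725 CPM (median 452 CPM) in D5000 and 28.5 to 1062 CPM (median 384 CPM) in D10000. The lowest D10000 value was again replicate 27, and the next was 227 CPM. The log2 fold change was -0.37 ± 0.49 (interval -1.36 to 0.62) in D5000 over control and -0.16 ± 0.47 (interval -1.12 to 0.80) in D10000 over control, which became 0.02 ± 0.40 without D10000 replicate 27. D10000 over D5000 gave 0.21 ± 0.47.

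With edgeR's quasi-likelihood test, 0 of the 7 genes passed an adjusted p of 0.05 at D5000 over control, where 0% of 10992 genes tested passed. The count was also 0 of 7 at D10000 over control and at D10000 over D5000, each against 0% of all genes. The edgeR adjusted p of each of the 7 genes was 0.9986 at D5000 over control, 0.9997 at D10000 over control and 0.9986 at D10000 over D5000, and the joint edgeR test of both doses gave an adjusted p of 0.9997 for each gene. At an unadjusted p under 0.05, 0 of the 7 genes were found in each comparison, where edgeR found 371 genes (3.38%) at D5000 over control, 263 genes (2.39%) at D10000 over control and 323 genes (2.94%) at D10000 over D5000. DESeq2 and voom also called 0 genes, with 510, 339 and 393 genes (DESeq2) and 401, 217 and 312 genes (voom) at an unadjusted p under 0.05 in the same order of comparisons. Groups of CPM values without overlap were found for 0 of the 7 genes in each comparison, beside 0% of all genes at D5000 over control, 0.0091% at D10000 over control and 0% at D10000 over D5000. The comparisons share their control or D5000 pigs. Without D10000 replicate 27 the counts of the 7 genes were again 0 at an adjusted and 0 at an unadjusted p under 0.05 in edgeR, beside 4.34%, 1.76% and 2.02% of all genes at the unadjusted p. For each of the 7 genes the intervals against control reached beyond a log2 change of 0.5 on at least 1 side, so a difference of that size in that direction was not excluded with these pigs.

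**Figure D3:**
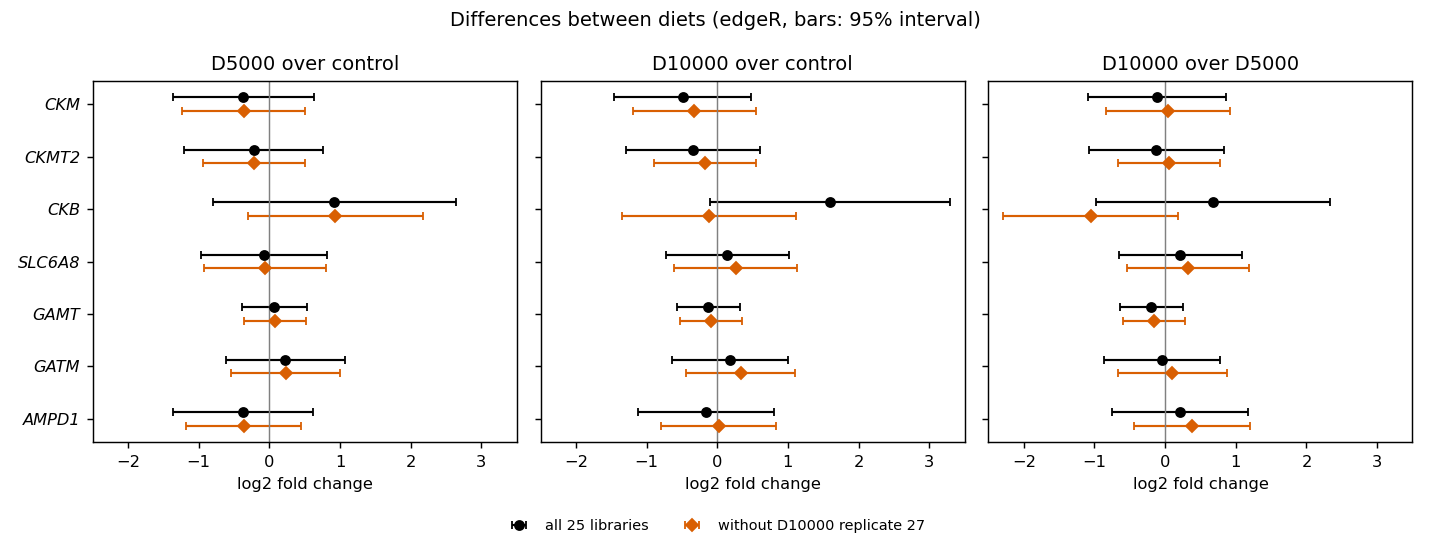
Log2 fold changes of the 7 genes from edgeR (x axis) with 95% intervals, for D5000 over control, D10000 over control and D10000 over D5000; black points use 25 libraries and orange diamonds leave out D10000 replicate 27. Each interval spans 0, GAMT has the narrowest, and CKB moves most when the library is left out.

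Ratios between genes of 1 library do not depend on library size, so they were compared for the balance of mitochondrial, brain-type and deaminase transcripts against CKM. CKMT2 counts were 2.67% to 15.0% of CKM counts in the control, 2.87% to 9.83% in D5000 and 0.866% to 11.4% in D10000, with medians of 3.88%, 5.43% and 4.51%. Control replicate 28, D5000 replicate 18 and D10000 replicate 30, with 4671, 2731 and 6068 CPM of CKM, had the highest ratios of their diets. D10000 replicates 2 and 27 were lower in CKM (5674 and 1176 CPM) than D10000 replicate 30. Their ratios were 5.97% and 0.866%, so low CKM did not always go with a high ratio. AMPD1 counts were 2.49% to 5.18% of CKM counts in the control, 1.27% to 12.0% in D5000 and 2.13% to 12.7% in D10000, so single pigs on both vitamin D3 diets lay above every control. These were D5000 replicates 18 and 29 and D10000 replicates 1, 13 and 30, while D5000 replicate 24 had the lowest ratio of all. CKB counts were 0.0151% to 0.123% of CKM counts in the control, 0.00679% to 0.536% in D5000 and 0.0106% to 13.1% in D10000.

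The mean log2 ratio of CKMT2 to CKM differed by 0.20 at D5000 over control, by -0.18 at D10000 over control and by -0.38 at D10000 over D5000. That of AMPD1 to CKM differed by 0.03, 0.15 and 0.11, and that of CKB to CKM by 0.34, 0.70 and 0.36, in the same order of comparisons. By two-sided exact permutation tests over pigs, with 9 comparisons made, the smallest p was 0.393 and each adjusted p was 0.924. The smallest p that 8 pigs against 8 allow in the exact test is 0.000155, so the design could have passed the threshold.

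**Figure D4:**
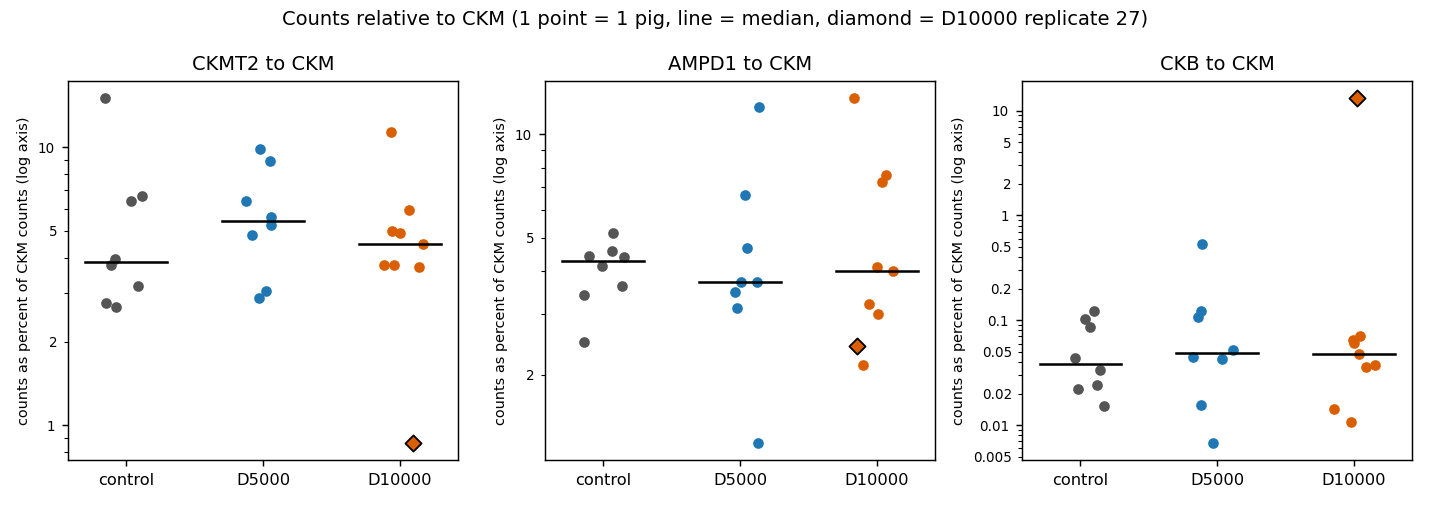
Counts of CKMT2, AMPD1 and CKB as a percent of CKM counts in each pig (log axes), by diet, with a line at the median and a diamond for D10000 replicate 27. The diamond is lowest for CKMT2 (0.866%) and highest for CKB (13.1%), and for AMPD1 the control pigs lie between 2.49% and 5.18%, inside the span of both vitamin D3 diets.

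Across all 25 libraries the 7 genes kept a steep order of levels. The medians were 12237 CPM for CKM, 552 CPM for CKMT2, 450 CPM for AMPD1, 132 CPM for GAMT, 63.6 CPM for GATM, 12.7 CPM for SLC6A8 and 5.28 CPM for CKB. CKM was above CKMT2 in 25 of 25 libraries, and their ranges did not overlap. CKMT2 was above AMPD1 in 13 of 25, so these neighbours had no fixed order. AMPD1 was above GAMT in 23 libraries, GAMT above GATM in 24, GATM above SLC6A8 in 22 and SLC6A8 above CKB in 21, with overlapping ranges for each of these pairs.

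Some of the genes of muscle energy buffering varied together over the 25 libraries. Relations were computed on log2 CPM scaled by TMM (a scaling by the bulk of genes), with Pearson r centred within diets, Spearman rho uncentred, 100000 permutations for each p and adjustment over 63 relations. Of 21 pairs among the 7 genes, 5 passed by both measures, and each joined genes among CKM, CKMT2, SLC6A8 and AMPD1. CKMT2 and CKM had r = 0.81 (permutation p = 6.0e-05, adjusted 0.000756) and rho = 0.66 (permutation p = 0.00102, adjusted 0.00643), with r = 0.62 without the 2 libraries farthest out. AMPD1 and CKM had r = 0.82 (permutation p = 5.0e-05, adjusted 0.000756) and rho = 0.70 (permutation p = 0.00029, adjusted 0.00261), with r = 0.61 without those 2. SLC6A8 and CKM had r = 0.59 (permutation p = 0.00264, adjusted 0.0115) and rho = 0.57 (permutation p = 0.00341, adjusted 0.0148), with r = 0.43 without those 2. The pairs AMPD1 with CKMT2 (r = 0.82, rho = 0.54) and AMPD1 with SLC6A8 (r = 0.56, rho = 0.52) also passed, at permutation adjusted p of 0.0355 and 0.0406 for rho.

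These pairs were not alike in every diet, and part of them rested on single libraries. CKMT2 and CKM had r = 0.44 in the control, 0.85 in D5000, 0.93 in D10000 and 0.80 in D10000 without replicate 27. AMPD1 and CKM had r = 0.93 in the control, 0.64 in D5000, 0.88 in D10000 and 0.60 in D10000 without replicate 27. In the control the other pairs were weak: SLC6A8 with CKM had r = 0.15, AMPD1 with SLC6A8 -0.01 and AMPD1 with CKMT2 0.35. In D5000 these pairs had r = 0.78, 0.86 and 0.66, and in D10000 without replicate 27 they had r = 0.60, 0.60 and 0.73. Without that library the pairs AMPD1 with CKMT2 and AMPD1 with SLC6A8 no longer passed by both measures, while GATM then ran against CKM (r = -0.59), CKMT2 (r = -0.60) and AMPD1 (r = -0.67), at permutation adjusted p of 0.0112, 0.0107 and 0.0055. With CPM over gene totals in place of TMM, 2 pairs passed: AMPD1 with CKM (r = 0.75) and GATM with GAMT (r = 0.68), at permutation adjusted p of 0.00827 and 0.00378.

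Fibre-type and library measures moved with the same genes. The mean level of 10 fast-twitch markers had r = 0.90 and rho = 0.90 with CKM (permutation p = 1e-05 for both, the smallest that can be given, adjusted 0.000315), and r = 0.85 without the 2 libraries farthest out. With AMPD1 it had r = 0.87 and rho = 0.67 (permutation adjusted p = 0.00063 and 0.00511), and it also passed with CKMT2 (r = 0.84, rho = 0.58) and SLC6A8 (r = 0.56, rho = 0.62). The slow-twitch markers passed with CKM too (r = 0.63, rho = 0.63, permutation adjusted p = 0.008 and 0.00756) and with CKMT2 (r = 0.61, rho = 0.59, permutation adjusted p = 0.00329 and 0.0166). ACTA1 passed with CKMT2 (r = 0.78, rho = 0.74). Without D10000 replicate 27 the fast-twitch markers had r = 0.86 with CKM, 0.72 with AMPD1, 0.55 with CKMT2 and 0.63 with SLC6A8. The slow-twitch markers then had r = 0.54 with CKM and 0.59 with CKMT2, and ACTA1 had r = 0.64 with CKMT2. In the control alone, the fast-twitch markers and CKMT2 had r = 0.33. D5000 replicate 24, which had the lowest AMPD1 level outside D10000 replicate 27 at 141 CPM, had the highest summed slow-twitch level (18464 CPM) and, outside D10000 replicate 27, the lowest summed fast-twitch level (13688 CPM). Its CKM level, 11145 CPM, was close to the median of its diet. The share of reads assigned to genes also moved with CKM (r = 0.65, rho = 0.77), AMPD1 (r = 0.56, rho = 0.77) and SLC6A8 (r = 0.62, rho = 0.59), at permutation adjusted p from 0.000472 to 0.028. Without D10000 replicate 27 the share had r = 0.81 with CKM, 0.78 with AMPD1, 0.64 with SLC6A8 and 0.88 with CKMT2. With CKMT2 the share had r = 0.83 in the control, 0.89 in D5000 and 0.33 in D10000 (0.90 without replicate 27). Over 25 libraries the share moved the opposite way with GATM (r = -0.59, rho = -0.65, permutation adjusted p = 0.014 and 0.00659), as did the adipocyte markers (r = -0.64, rho = -0.56, permutation adjusted p = 0.0107 and 0.0233). Of 42 relations between the 7 genes and such measures, 13 passed by both r and rho. With CPM over gene totals the share passed with none of CKM, AMPD1 and SLC6A8 by both measures, but did with GATM (r = -0.73) and GAMT (r = -0.73), and the part of the share in the levels of these genes was not tested.

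The sharpest relation of all was that of GATM with liver transcripts in the muscle libraries. The liver list, of which 13 of 15 symbols were matched, summed to 3925 to 26334 CPM in the control (median 9078 CPM), 4200 to 37126 CPM in D5000 (median 16006 CPM) and 3637 to 41222 CPM in D10000 (median 10641 CPM). The mean log2 level of its genes tested in edgeR had r = 0.94 and rho = 0.92 with GATM (permutation p = 1e-05 for both, adjusted 0.000315). Without the 2 libraries farthest out r was 0.92. Within diets r was 0.96 in the control, 0.92 in D5000 and 0.95 in D10000, and 0.92 in D10000 without replicate 27. D10000 replicate 7, with the highest GATM level, also had the highest liver sum, and D10000 replicate 27 had the lowest liver sum together with 19.6 CPM of GATM. SERPINA1, a liver marker, was at 0 in 23 libraries, and 11 kidney and pancreas markers summed to 0 to 7.39 CPM per library.

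The ratio of GATM to ALB, the liver's albumin transcript, was steadier than either level. GATM ranged 15.6-fold over the 25 libraries and ALB 19.4-fold, from 934 to 18158 CPM, while GATM per 1000 ALB counts ranged 3.38-fold, from 6.20 to 21.0. By the same measure GAMT per 1000 ALB counts ranged 14.2-fold and CKM per 1000 ALB counts 68.2-fold. GAMT and the liver list had r = 0.35 and rho = 0.40 (permutation adjusted p = 0.204 and 0.117) with TMM, and r = 0.76 and rho = 0.81 (permutation adjusted p = 0.00063 and 0.000472) with CPM over gene totals, so this relation depended on the scaling. CKM had r = -0.24 with the liver list over 25 libraries and r = -0.70 without D10000 replicate 27, and AMPD1 had r = -0.18 and r = -0.76. The part of the liver transcripts in the levels of these genes was not tested. With the mean of the liver markers as a covariate, chosen after seeing the data, the edgeR log2 fold change of GATM was -0.22 at D5000 over control and -0.19 at D10000 over control, with 0 genes called.

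**Figure D5:**
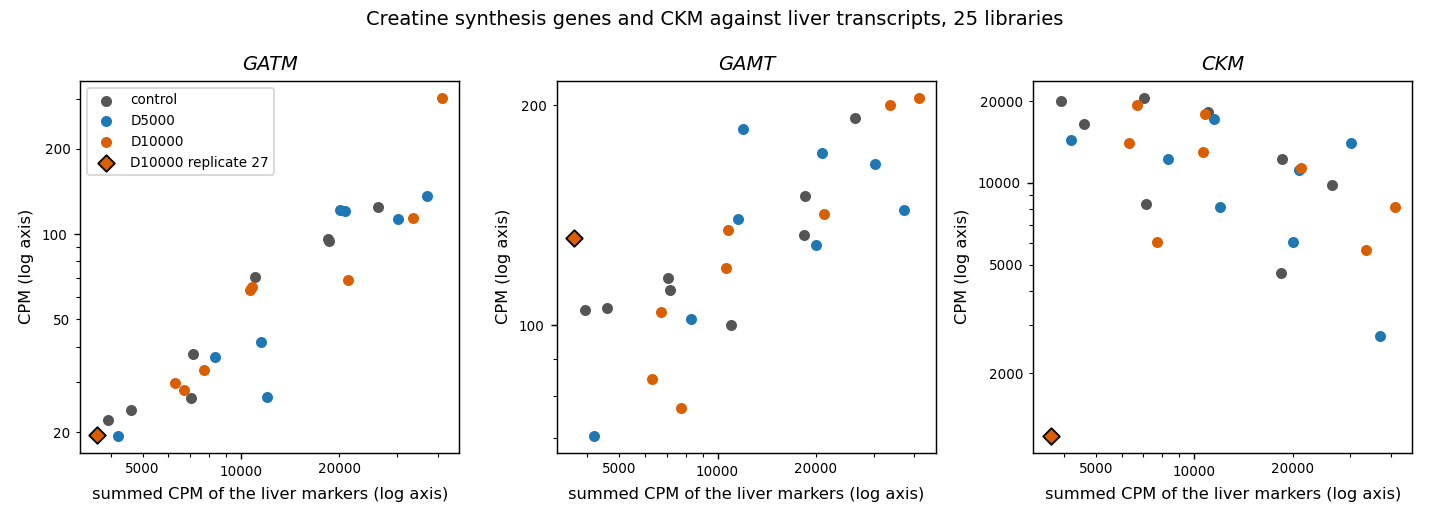
CPM of GATM, GAMT and CKM (y axes, log) against the summed CPM of the liver markers (x axes, log) in 25 libraries, coloured by diet, with a diamond for D10000 replicate 27. GATM climbs with the liver sum in all 3 diets, GAMT does so on this scale of gene totals apart from the diamond, and CKM is lower in many libraries with a high liver sum, with the diamond low in both.

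For each of the 7 genes the 3 named genes with the highest Spearman rho over the 25 libraries were listed, among 3699 or 3700 genes with a mean of at least 20 CPM. CKM was closest to TMEM38A (rho = 0.92), BTBD6 (0.91) and SRL (0.89). CKMT2 was closest to RNF157 (0.87), RPRD1A (0.85) and TMEM109 (0.83), and AMPD1 to COPS5 (0.89), TMOD4 (0.89) and MYOZ1 (0.88). GATM was closest to ALDH1A1, APOA1 and ADH4 (0.94 each), of which APOA1 is also in the liver list. SLC6A8 was closest to MYBPH (0.83), MAFF (0.80) and NR4A3 (0.80), and CKB to TPPP3 (0.78), S100A1 (0.70) and RPS15 (0.68). GAMT had the weakest neighbours, HLF (0.68), PAK1 (0.60) and HSD17B10 (0.58). Without D10000 replicate 27, HSD17B10 took place 1 for GAMT (rho = 0.69), HLF place 2 (0.64) and PAK1 place 10 (0.56). S100A1 and RPS15 then lay at places 5 and 7 for CKB, and APOA1 and ADH4 at places 6 and 7 for GATM. The closest gene of every member except GAMT kept place 1. The 99th percentile of rho over all genes compared was 0.90 for GATM, 0.80 for CKM, 0.79 for AMPD1 and 0.74 for CKMT2. It was 0.67 for SLC6A8, 0.55 for CKB and 0.46 for GAMT. The 3 genes named for GATM were thus not its only close ones. These values describe the libraries, which share depth and tissue make-up.

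A wider list of 31 genes of creatine transport, methyl supply, adenylate kinases and adenine nucleotide exchange was set beside the 7 genes. Of its 25 matched genes 21 could be tested, and 0 passed edgeR's adjusted p of 0.05 or an unadjusted p under 0.05 in any comparison. At D5000 over control 9 log2 fold changes were above 0 and 12 below, with a median of -0.01 against 0.01 over all genes. At D10000 over control 10 were above 0 and 11 below, with a median of -0.06 against 0.07, and at D10000 over D5000 7 were above and 14 below, with a median of -0.12 against 0.04. Without D10000 replicate 27 the last comparison had 10 above and 11 below, with a median of -0.02, so this imbalance rested on that library, and D10000 over control had 10 above and 11 below, with a median of -0.10 against 0.02.

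The most abundant genes of this list were AK1, the cytosolic adenylate kinase (851 ± 468 CPM, SD, n = 25), SLC25A4, the muscle ATP/ADP carrier of mitochondria (714 ± 289 CPM), and VDAC1, a channel of the outer mitochondrial membrane (639 ± 264 CPM). The smallest p at D5000 over control belonged to the creatine transporter SLC16A12, at a log2 fold change of 0.77 ± 0.46, and to MAT2A, which makes the methyl donor used by GAMT, at 0.40 ± 0.31. At D10000 over control these were AHCY, which clears the product left after methyl transfer, at -0.44 ± 0.26, and SLC25A4 at -0.58 ± 0.35. At D10000 over D5000 they were MAT2A at -0.47 ± 0.30 and AHCY at -0.37 ± 0.26. Without D10000 replicate 27 the smallest p at D10000 over control belonged to SLC16A12 at 0.68 ± 0.44 and SLC25A5, another ATP/ADP carrier, at 0.66 ± 0.44, with AHCY at -0.32 ± 0.24 and SLC25A4 at -0.43 ± 0.31. At D10000 over D5000 they then belonged to MAT2A at -0.57 ± 0.30 and ADSL, an enzyme of the purine nucleotide cycle, at 0.51 ± 0.34, with AHCY at -0.25 ± 0.24. At D5000 over control they belonged to SLC16A12 at 0.79 ± 0.44 and SLC25A4 at -0.44 ± 0.31. In D10000 replicate 27 itself, AK1 was 5.47-fold, SLC25A4 4.55-fold and ADSS1, the muscle adenylosuccinate synthase, 12.0-fold below the median of the other libraries, beside CKM, CKMT2 and AMPD1. The carrier SLC25A6 (2.63-fold) and APRT, which salvages adenine (2.70-fold), were above that median and at their highest there, and over 22 genes of the list the median was 1.64-fold lower, with 6 at their lowest and 2 at their highest.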

How the data were processed

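The values deposited by the authors were raw read counts per Ensembl pig gene, 1 file per pig, with no normalization found in them. Libraries were made with a kit that reads the 3' ends of mRNA, per the labels' protocols, and FastQC was run, per the submitters' processing notes. The aligner, genome build and annotation are not given in the sources used here, so no coordinates or sequences are printed. In RefSeq's Sscrofa11.1 table CKM, CKMT2, SLC6A8, GAMT, GATM and AMPD1 overlap no other gene. CKB has no known chromosome there, so its overlap with other genes could not be judged. Of 25880 gene identifiers, 1 missing in 1 file was left out, and the 5 summary lines and spike-ins (1 read in 1 library) were not used.

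The members, gene lists and tests were chosen with earlier results of these data known. Counts were filtered with filterByExpr (minimum count 10), which left 10992 genes with all 7 members, scaled by TMM and fitted with glmQLFit and glmQLFTest of edgeR 4.0.16 in R 4.3.3, all 25 libraries together with diet as the only term. P-values were adjusted by Benjamini-Hochberg over all genes (threshold 0.05). DESeq2 1.42.0 and voom of limma 3.58.1 were alternatives, besides other scaling, no filter, the percentage of gene-assigned reads as a covariate and each library left out. Ratios had 0.5 counts added and relations 100000 permutations within diets (scipy 1.17.1). In the relations, the mean of a marker list took only its genes that passed the filter, while summed levels took all its matched genes. The scripts were tested on simulated data. No 2 libraries of the same diet agreed within sampling noise, and pairs across diets were not compared. Each library is 1 pig, as far as the labels say, so p-values measure the spread between pigs. Intervals of counts cover counting error only. The common biological coefficient of variation was 0.669, and the fit estimated the spread gene by gene.

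Genes named are the 7 members, the 3 closest genes of each by rho, and, from the list of related genes, those past the threshold or else the 2 with the smallest p per comparison, and the 3 most abundant; markers are named for libraries that stand apart. ADSS1, SLC25A5, SLC25A6, APRT and ADSL were named after their values were seen.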

Additional observations from a re-analysis of the deposited data

Results flagged for a closer look

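In 30 groups of values (7 levels and 3 ratios in each of 3 diets), the highest or lowest pig was checked for its gap to the next one, relative to the range of the group. By chance about 1 in 20 groups would stand out if values were normally spread and groups independent, and 5 did. CPM values are skewed for genes such as CKB, and the groups share genes and libraries, so that rate is only a rough guide. CKB had 43.8 CPM in D5000 replicate 6, where the next highest pig of the diet had 17.2 CPM. CKB had 154 CPM in D10000 replicate 27, with 11.7 CPM as the next value. GATM had 302 CPM in D10000 replicate 7, with 114 CPM as the next value. In D10000 replicate 27 the log2 ratio of CKMT2 to CKM was -6.85, below the next lowest value of -4.75, and the log2 ratio of CKB to CKM was -2.93, above the next highest value of -10.46. So 3 of the 5 gaps belong to the library with the high adipocyte markers, and D10000 replicate 7 is the one with the highest liver sum. The part of those transcripts in the values was not tested.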

How the results depend on the processing

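No alternative called a gene in any comparison or in the joint test, but some directions changed, and the cause was not tested. Not only differences near 0 changed sign, since those of CKB did so in each comparison under at least 1 alternative. With the percentage of gene-assigned reads as covariate, log2 fold changes at D5000 over control were 0.11 (CKMT2), 0.0656 (SLC6A8) and 0.0061 (AMPD1), and at D10000 over control -0.10 (GATM) and 0.0117 (AMPD1). With the liver covariate, chosen after seeing the data, they were 0.0276 (CKMT2) and -0.22 (GATM) at D5000 over control, -0.19 (GATM) and 0.0013 (AMPD1) at D10000 over control, and -0.28 (CKB) and 0.0365 (GATM) at D10000 over D5000. With voom they were -0.30 (CKB, D5000 over control), -0.0355 (GATM, D10000 over control) and -0.12 (AMPD1, D10000 over D5000), and with DESeq2 -0.12 and -1.05 (CKB, D10000 over control and over D5000). Leaving out 1 library at a time gave, at D5000 over control, -0.37 to 0.13 (SLC6A8) and -0.0369 to 0.14 (GAMT); at D10000 over control, -0.12 to 1.82 (CKB), -0.0621 to 0.35 (SLC6A8), -0.25 to 0.33 (GATM) and -0.33 to 0.0176 (AMPD1); at D10000 over D5000, -0.31 to 0.0544 (CKM), -0.32 to 0.0825 (CKMT2), -1.05 to 1.57 (CKB) and -0.48 to 0.12 (GATM). For log2 ratios to CKM it gave -0.36 to 0.10 (CKMT2, D10000 over control), -0.13 to 0.76, -0.24 to 1.00 and -0.58 to 0.83 (CKB at D5000 over control, D10000 over control and D10000 over D5000) and -0.19 to 0.27, -0.0476 to 0.27 and -0.13 to 0.34 (AMPD1, same order). Without D10000 replicate 27, r was -0.60 (CKMT2 with GATM), -0.60 (GATM with fast-twitch markers), 0.59 (CKMT2 with adipocyte markers) and -0.63 (CKMT2 with liver markers), 21 of 42 relations with library measures passed and 6 pairs did. With CPM over gene totals these counts were 6 and 2. Without a filter, edgeR's unadjusted p under 0.05 held for 1618, 1537 and 1716 of 16486 genes, against 371, 263 and 323 of 10992. The joint test was not run with DESeq2. No paired analysis was possible because animal numbers are not shared between diets and the labels give no litters. CKB and SLC6A8 rest on few counts, from 2 and 20 per library.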
